A study of Homo sapiens with 8 samples.

Results

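The response of exon skipping to emetine was measured in MCF10A, a non-tumorigenic human breast epithelial cell line. Cells of 1 line were grown for 24 hours with 10 µM emetine or with the solvent DMSO as the control, and each group had 2 libraries of polyadenylated RNA. A skipped-exon event is a middle exon with its upstream and downstream neighbour, for which reads across the splice junctions count as inclusion or as skipping. The 67170 events described here were those of the MCF10A table with at least 20 such reads in each of the 4 libraries, out of 123924 events listed for either cell line of the series. The other line, HMLE TWIST, breast epithelial cells that overexpress the transcription factor TWIST, had 79044 events at the same read minimum and is used only where stated. The series concerns compounds that change splicing through RNA G-quadruplexes, and the comparison asks which exons change under emetine. The labels call the replicates biological, but nothing says whether they came from separate cultures on separate days, so the p-values measure the spread between these libraries. In bulk RNA, fewer cells that use an exon and less use per cell cannot be told apart.

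Emetine is a plant alkaloid that blocks translation elongation on the cytosolic ribosome. Alternative splicing decides whether an exon is kept in the mature messenger RNA, and many exons carry an in-frame stop codon that turns the transcript into a target of nonsense-mediated decay, a pathway that needs translation to recognise the early stop. Exons of this kind are known as poison exons and are common in genes of RNA-binding proteins. Other exons act in the opposite way, since skipping them shifts the reading frame and makes the shorter form the decay target.

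Both kinds of exon recur in the results, so examples picked for the direction in which they changed are shown first, read from the GENCODE 29 transcripts that hold the matched exon. The exons of the first set are annotated in decay-target transcripts and in no protein-coding transcript. Each is printed from its first base to the annotated in-frame stop codon, which is in capitals.
SF3B3: gtggctggTGA
RPS9: ccctcggaggTGA
EIF4A2: gagtcgaTAG
SMAD4: agttaaactccTGA
FKBP14: tctttTAG
AASS: ggattggaatgcTGA
The exons of the second set are coding, with the whole exon in capitals between 12 bases of each flanking exon in lower case.
SNRPA1: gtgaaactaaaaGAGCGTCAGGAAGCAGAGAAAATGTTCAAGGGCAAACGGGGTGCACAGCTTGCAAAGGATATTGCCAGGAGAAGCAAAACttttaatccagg
BORA: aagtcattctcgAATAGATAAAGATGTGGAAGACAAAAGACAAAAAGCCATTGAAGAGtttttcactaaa
TNRC6A: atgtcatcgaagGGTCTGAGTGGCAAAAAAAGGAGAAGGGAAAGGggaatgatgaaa
PICALM: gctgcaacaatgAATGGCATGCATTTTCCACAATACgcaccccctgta
The first set was picked among decay-target exons that rose and have an early stop, 8 to 15 bases into the exon, and the second among coding exons that fell. Other exons described below differ from these examples. The stop ends 54 bases into the exon of AGPAT4, 107 into that of CEP89 and 137 into that of BRD9, a decay-target exon of 140 nucleotides in ABHD11 fell, and coding exons of EXOC1 and CALCOCO1 rose. Of the second set, the exons of SNRPA1 (80 nucleotides) and BORA (46 nucleotides) are not a multiple of 3 long, so skipping them shifts the frame, while those of TNRC6A (33 nucleotides) and PICALM (24 nucleotides) keep it.

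The 4 libraries had 78412292 to 83483642 junction reads when all events were added up, where 1 read may be counted under more than 1 event. Replicates differed by more than counting error, with a mean chi-square per event of 2.17 for DMSO and 2.16 for emetine, where 1 is sampling noise alone. The epithelial identity was checked on junction reads of marker genes. Of 17 epithelial markers 11 had events, with a sum of 4389 and 4245 reads per 1000000 junction reads in the controls and of 3510 and 3420 with emetine, with KRT5 and ITGB4 among the most abundant. Of 12 mesenchymal markers 7 had events, and their sum was 353 and 372 in the controls against 87.3 and 93.5 with emetine. VIM made up most of it, at 318 and 340 against 71.6 and 75.98, while ZEB1, ZEB2, TWIST1 and DCN stayed at or below 1.29 in every library. None of the 5 immune and endothelial markers had an event, but neither did some epithelial markers, such as EPCAM, KRT18 and DSP. A gene without an event may still be expressed, so the presence of other cell types was not tested. The reads of ESRP1 and ESRP2, which encode epithelial splicing regulators, were lower under emetine (43.1 and 40.2 against 14.6 and 18.3 for ESRP1, and 32.4 and 30.6 against 10.6 and 9.94 for ESRP2). The part of these differences in the splicing results was not tested. No event of a marker gene was called changed.

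Emetine changed exon inclusion in both directions and in a large part of the genes measured. The inclusion level of an event is the share of its length-corrected junction reads that include the exon, from 0 to 1, and a change is the mean over the emetine libraries less the mean over those in DMSO. Of the 67170 events, 25522 in 7852 genes had enough reads of the rarer form to be tested. A quasi-binomial model with Benjamini-Hochberg adjustment called an event changed where the adjusted p was under 0.05 and the change at least 0.1. By this rule 3533 events (13.8%) changed, of which 2135 (8.37%) rose and 1398 (5.48%) fell, in 2320 genes (29.5% of those tested). When levels were computed without the length correction, 29.7% of the changed events fell instead of 39.6%. In 3507 of the changed events (99.3%) both emetine libraries lay on the same side of both controls, against 67.4% of all tested events. limma on the log2 odds called 2012 events (7.88%), and 1964 were called by both tests.

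Most changes were partial. Of the events that rose, 1122 did so by 0.1 to 0.2, 541 by 0.2 to 0.3, 401 by 0.3 to 0.5 and 71 by 0.5 or more. The corresponding numbers of falls were 815, 350, 208 and 25. Changes of 0.3 or more were thus seen in 472 events that rose (1.85% of those tested) and 233 that fell (0.913%). The major form switched in 441 events that rose from under 0.5 to over 0.5 and in 196 that fell through that level. The scatter of levels under emetine against DMSO shows the rises spread along the left and the falls packed at the right edge.

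**Figure D1:**
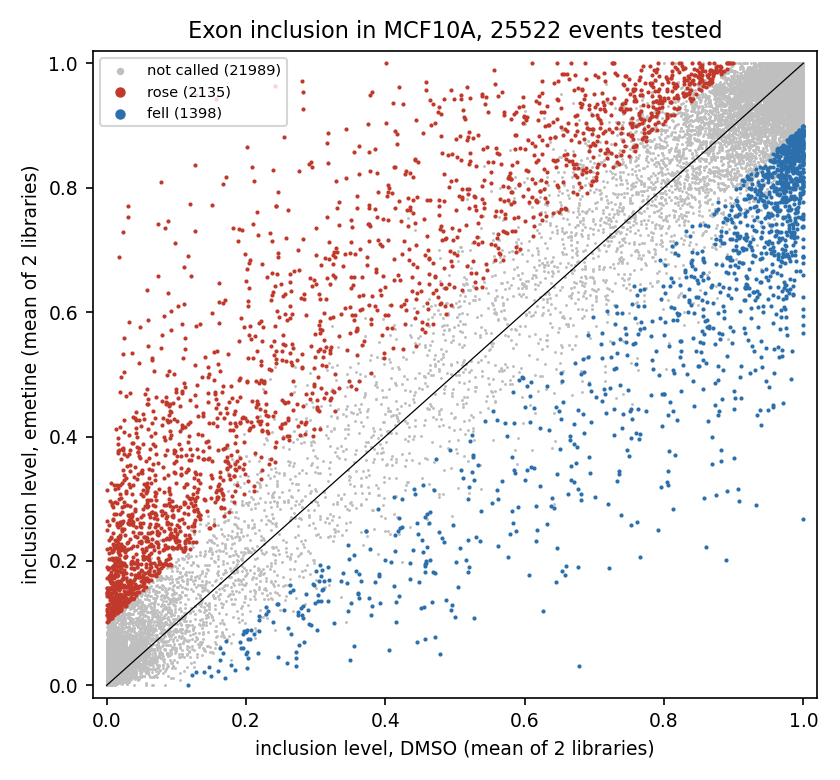
Mean inclusion level under emetine (vertical axis) against DMSO (horizontal axis) for the 25522 tested MCF10A events, each the mean of 2 libraries, with 2135 events that rose in red, 1398 that fell in blue and the others in grey. Falls crowd at DMSO levels of 0.9 or more, where 862 of the 1398 began, while rises began at levels below 0.9.

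How far an exon could move depended on its level in DMSO. Of 5126 tested events with a control level under 0.1, 795 rose (15.5%) and 0 fell. Between 0.1 and 0.5, 736 of 2186 rose (33.7%) and 164 fell (7.50%), and between 0.5 and 0.9, 604 of 3611 rose (16.7%) and 372 fell (10.3%). At 0.9 or more, 862 of 14599 fell (5.90%) and 0 rose. A fall from under 0.1 or a rise from over 0.9 cannot reach the size threshold, so the outer counts of 0 follow from the rule. Of the changed events 70.1% moved closer to 0.5, as did 65.2% of all tested events.

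The same movement was seen in the libraries as a whole, over all 67170 events and with no filter on the rarer form. Both forms were detected in 52.6% and 54.5% of events in DMSO and in 68.0% and 66.7% after emetine. Depth differed as well, since the median event had 331 and 340 reads in DMSO and 420 and 395 after emetine. After each event was thinned to the reads of its shallowest library, the shares were 48.0% and 49.4% against 59.6% and 59.4%. Levels between 0.1 and 0.9 made up 9.03% and 9.20% of events in DMSO against 11.6% and 11.5% after emetine. The mean level stayed close, at 0.861 and 0.859 against 0.862 and 0.862, and over the tested events it was 0.695 ± 0.00313 (SD, n = 2) in DMSO and 0.703 ± 0.0000909 after emetine. The mean over all events differed by 0.00202 and that over tested events by 0.00741. In each of these measures the groups were set apart by more than the replicate SDs, but an exact two-sided permutation test of 2 against 2 libraries cannot go below p = 0.33, the value found for all of them.

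The direction of a change differed between classes of annotated forms. Each tested event was matched to GENCODE 29 by gene, exon length and intron length, and 25214 (98.8%) found a match. The first class held exons in decay-target transcripts and in no protein-coding transcript, with a protein-coding skipping form. There 484 of 2116 tested events rose (22.9%) and 36 fell (1.70%). Where a coding exon has a skipping form that is a decay target, the order was the reverse, with 44 of 1462 rising (3.01%) and 223 falling (15.3%). Exons found only in other noncoding transcripts of a protein-coding gene resembled the first class, with 192 rises (17.1%) and 22 falls (1.95%) among 1126. Where both forms are protein coding, 679 of 6742 rose (10.1%) and 404 fell (5.99%). The first 2 classes began near the ends of the scale, at median control levels of 0.0177 and 0.980. Most of their events thus could not change by 0.1 in the other direction. Over all tested events, 15.5% of those with a control level under 0.1 rose, and 5.90% of those at 0.9 or more fell.

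**Figure D2:**
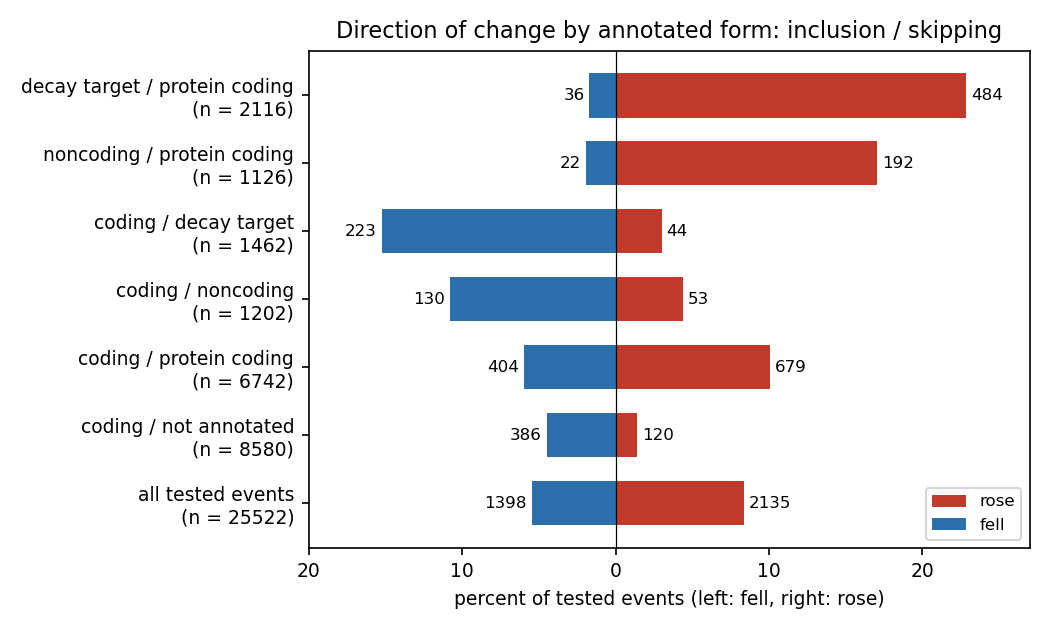
Percent of tested MCF10A events that rose (red, right) or fell (blue, left) for each pair of annotated forms, written as inclusion form / skipping form, with the number of events beside each bar. Rises reached 22.9% of events with a decay-target inclusion form and falls 15.3% of those with a decay-target skipping form, against 8.37% and 5.48% of all tested events. These 2 classes began at median control levels of 0.0177 and 0.980, which limits changes in the other direction.

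An event can pass the filter on the rarer form through the emetine libraries alone, so the shares were also taken on other bases. Over all events with the read minimum, tested or not, 18.5% of the 2616 with a decay-target inclusion form rose and 1.38% fell, against 3.18% and 2.08% of all 67170. Of the 2298 with a decay-target skipping form, 1.91% rose and 9.70% fell. With the rarer form required to have 10 reads in the controls alone, 14417 events were left, of which 13.3% rose and 5.94% fell. In that set 381 of 1276 events with a decay-target inclusion form rose (29.9%) and 32 fell (2.51%), and 44 of 754 with a decay-target skipping form rose (5.84%) and 135 fell (17.9%). limma called 356 rises and 11 falls in the first class and 15 rises and 152 falls in the second. Without the length correction, the falls with a decay-target skipping form numbered 130.

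Coding exons with no annotated skipping form fell more often than they rose, but this depended on the filter on the rarer form. Among 8580 tested exons of this kind 120 rose (1.40%) and 386 fell (4.50%). Where the controls alone had to pass that filter, 2981 were left, of which 115 rose (3.86%) and 119 fell (3.99%). The median control level of the 8580 was 0.990, so most of them could not reach the size threshold for a rise. Among all 8580, 309 of 5426 fell (5.69%) where the exon length is not a multiple of 3. Where it is, 77 of 3154 fell (2.44%). Among the coding exons whose skipping form is itself protein coding, the shares that fell were 5.42% of 2695 and 6.38% of 4047. By the place of the stop codon, rises were seen in 22.4% of 1494 decay-target exons that hold the stop codon, in 19.9% of 312 with the stop further downstream, in 26.9% of 201 with the stop upstream and in 30.3% of 109 with several such places or none.

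The reads of the forms moved unevenly. They were expressed as log2 change of reads per 1000000 junction reads, with 0.5 added to each count. On this scale the median over all tested events of the reads of both forms together was 0.21, so smaller values lie below the bulk of events. Events that rose gained inclusion reads by a median of 1.77 and their skipping reads changed by -0.49. Events that fell gained skipping reads by a median of 2.53 and their inclusion reads changed by -0.17. In the class with a decay-target inclusion form the 484 rises had a median gain of inclusion reads of 3.04 and a change of skipping reads of -0.10. In the class with a decay-target skipping form the 223 falls had a median gain of skipping reads of 2.86 and a change of inclusion reads of -0.07. These medians describe events called in a given direction, which began at median control levels of 0.0462 and 0.962 in these classes, where the rarer form moves most on a log scale whatever its annotation. The 386 falls of coding exons with no annotated skipping form had a median of 3.35 for skipping and -0.04 for inclusion reads. In the 36 falls of decay-target exons, skipping reads gained 1.65 and inclusion reads 0.10. In 97 events that fell, no skipping read was seen in either control, and with these set to a floor of 3 counts over the group the median gain of skipping reads was 2.46 over all falls. For 16 rises with no inclusion read in either control the same step left the median at 1.77.

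**Figure D3:**
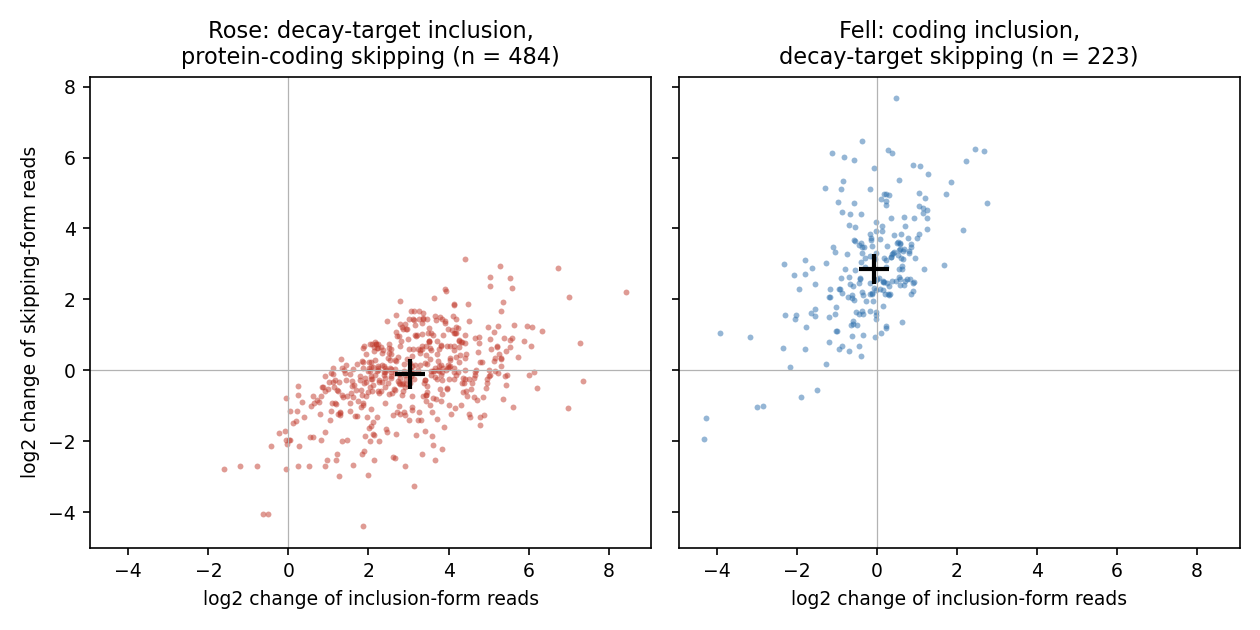
Log2 change of skipping-form reads (vertical axis) against inclusion-form reads (horizontal axis), emetine against DMSO, per 1000000 junction reads, for 484 rises with a decay-target inclusion form (left) and 223 falls with a decay-target skipping form (right); each point is an event and the cross the median. The crosses lie at 3.04 and -0.10 on the left and at -0.07 and 2.86 on the right.

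A reciprocal exchange of forms was the minority. With 1.5-fold as the limit, 569 of the 2135 rises (26.7%) gained inclusion reads and lost skipping reads. In 778 (36.4%) inclusion reads rose and skipping reads stayed within the limit, in 354 (16.6%) both forms rose, and in 330 (15.5%) only the skipping reads fell. Among the 1398 falls, 340 (24.3%) were reciprocal, 586 (41.9%) gained skipping reads alone, 316 (22.6%) gained both and 117 (8.37%) lost inclusion reads alone.

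Very short exons fell more often than others. Of 373 tested events with an exon of 27 nucleotides or less, 59 fell (15.8%) and 17 rose (4.56%). Their median control level was 0.604, against 0.944 over all tested events, and 10.3% of all events between 0.5 and 0.9 fell. Exons of 28 to 99 nucleotides fell in 6.68% and rose in 7.33% of 10260 events, those of 100 to under 200 in 4.50% and 8.75% of 12116, and those of 200 or more in 3.93% and 11.04% of 2773. Exons beside a short intron also fell more often than they rose. Where the shorter flanking intron had under 200 nucleotides, 330 of 3513 events fell (9.39%) and 161 rose (4.58%). For 200 to under 1000 nucleotides 5.70% of 7704 fell and 10.8% rose. The median control levels were 0.977 and 0.891, so most events with the shortest introns could not rise by 0.1. Length as a multiple of 3 made a small difference over all events, with 4.49% of 9991 falling where it is and 6.11% of 15531 where it is not.

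The affected genes were compared by function with 23 lists of genes, each set beside all tested events. Lists of RNA processing and gene regulation had the highest shares of rises. The core spliceosome list had 29 rises (14.8%) and 7 falls (3.57%) in 196 events, snoRNA hosts and long noncoding RNA genes 39 (14.2%) and 5 (1.82%) in 275, zinc finger transcription factors 65 (14.1%) and 18 (3.91%) in 460, and splicing regulators 44 (13.5%) and 16 (4.91%) in 326. At the other end stood the cytosolic ribosomal proteins, with 3 rises (1.61%) and 0 falls in 186 events. The lists also differed in room to rise and in depth. The median control level was 0.758 for the snoRNA host and noncoding list and 0.704 for zinc finger genes, against 0.944 over all tested events and 0.9985 for ribosomal proteins. The median event of the first 2 of these had 93 and 71 reads in its shallowest library, against 275 over all tested events. The 5 lists of splicing regulators, core spliceosome, DNA replication and repair, apoptosis and p53, and chromatin had a share of changed events above that of all tested events in each of 9 alternative settings. Those of ribosomal proteins, translation, mitochondria, ubiquitin, adhesion, trafficking, autophagy, nuclear pore, protein folding and metabolism were above it in 0 of the 9. The lists together held 2919 of the tested genes, of which 834 (28.6%) had a changed event, against 1486 of the 4933 others (30.1%).

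**Figure D4:**
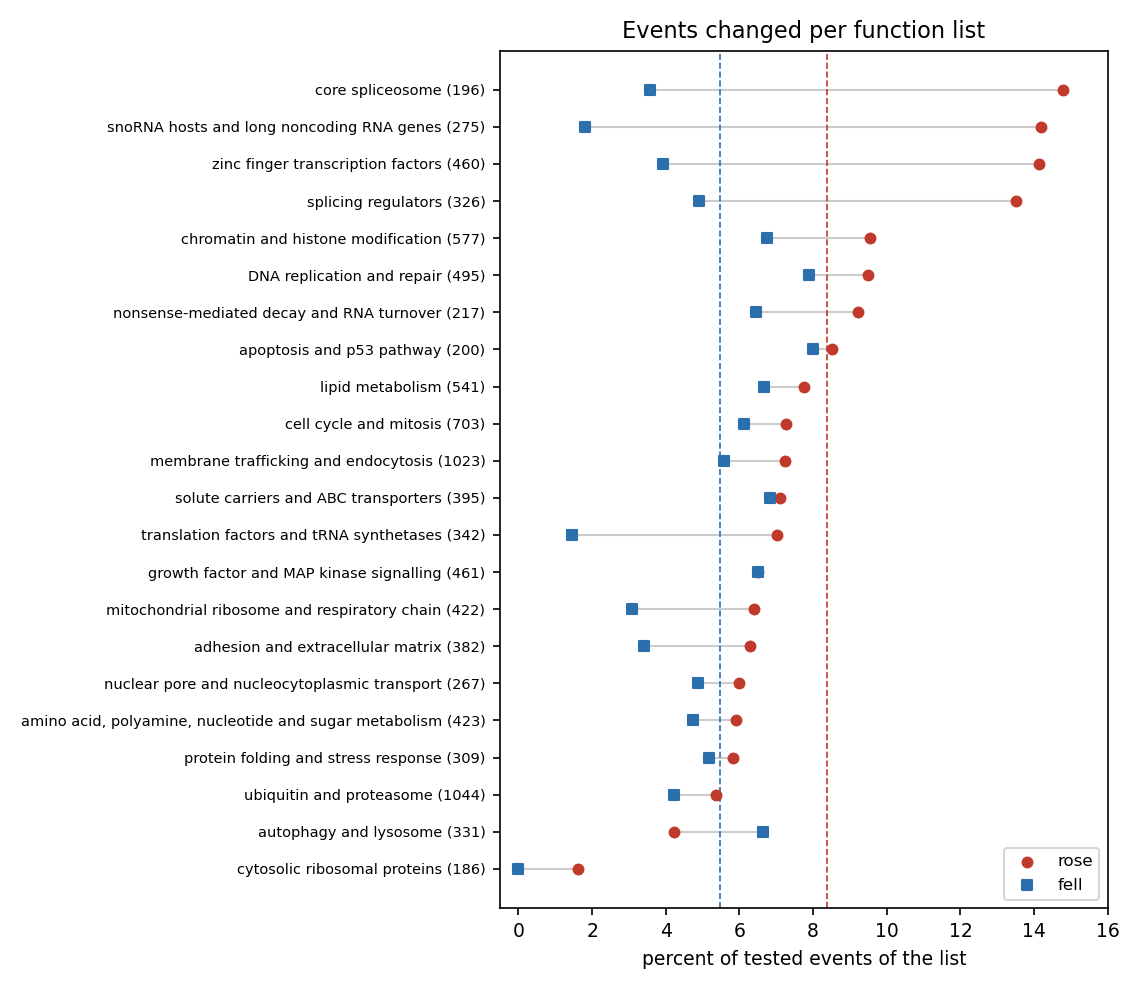
Percent of tested events that rose (red circles) and fell (blue squares) in each of 22 function lists, with the number of events tested in parentheses; dashed lines mark all tested events (8.37% rose, 5.48% fell). The core spliceosome list has the highest share of rises, 14.8%, and ribosomal proteins the lowest shares, 1.61% and 0.

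Splicing regulators, which bind pre-mRNA and steer exon choice, changed in 37 of 76 tested genes (48.7%, against 29.5% of all tested genes). Of their 44 rises, 23 were decay-target exons of a gene whose skipping form is protein coding (52.3%, against 22.7% of all rises), a class that held 15.6% of the events of the list and 8.29% of all tested events. The 54-nucleotide decay-target exon of MBNL2, a muscleblind splicing factor (chromosome 13, 98009050 to 98009103, GRCh37), had levels of 0.147 and 0.108 in DMSO and 0.817 and 0.855 under emetine. Unlike the exons printed above, it had no annotated decay-target stop codon found wholly within it, and its length is a multiple of 3. HNRNPH1 encodes a protein that binds runs of G in RNA. Its 92-nucleotide coding exon (chromosome 5, 179046270 to 179046361) went from 0.894 and 0.906 to 0.313 and 0.416. The next exon of the gene, of 179 nucleotides, rose from 0.701 and 0.583 to 0.973 and 0.963. These 2 events share a junction, and the reads that skip the first exon are nearly all of those that include the second, so they are not separate observations.

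Among core spliceosome genes, 23 of 77 (29.9%) had a changed event, close to the 29.5% of all tested genes. Decay-target exons with a protein-coding skipping form made up 15 of the 29 rises (51.7%) and 20.4% of the list's events, against 22.7% of all rises and 8.29% of all tested events. The 29-nucleotide exon of SF3B3 (chromosome 16, 70584553 to 70584581), whose first bases are printed above, was near absent in DMSO. SF3B3 is a subunit of the complex that recognises the branch point. Its levels were 0.0253 and 0.0246 in DMSO and 0.567 and 0.551 under emetine, at 1522 reads or more per library. Reads that include it rose by 4.87 on the log2 scale and those that skip it fell by 0.74. SNRPA1 encodes a protein of the U2 particle, and its 80-nucleotide coding exon (chromosome 15, 101826419 to 101826498) fell from 0.983 and 0.988 to 0.601 and 0.659. Here the skipping form is the decay target and gained 5.12, while the inclusion reads changed by -0.16. The 2 genes thus changed in opposite directions while the decay-target form gained reads in each. limma's adjusted p was 0.0145 for both. Exons named per list were chosen among those whose groups do not overlap, so that feature is not a result here.

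The machinery that degrades or silences RNA had a changed event in 15 of 58 genes (25.9%), below the 29.5% of all genes, and its 20 rises and 14 falls in 217 events (9.22% and 6.45%) were near the shares of all events. The 117-nucleotide coding exon of LSM14B, an RNA-binding protein of processing bodies, rose from 0.347 and 0.306 to 0.688 and 0.705. TNRC6A, the partner of Argonaute in silencing by microRNAs, had a fall of its 33-nucleotide coding exon from 0.942 and 0.940 to 0.697 and 0.675. Both forms of the TNRC6A event gained reads, by 0.33 for inclusion and 3.14 for skipping.

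Genes of translation itself had a changed event less often than others, but their events were deeper and nearer to full inclusion. The median control level was 0.9985 for ribosomal proteins and 0.989 for translation factors and tRNA synthetases, against 0.944 over all tested events. The median event had 20178.5 and 1490 reads in its shallowest library, against 275, so 10 reads of the rarer form were a smaller share. Of 62 ribosomal protein genes 2 had a changed event. RPS9, of the small ribosomal subunit, was the larger of the 2. Its 172-nucleotide decay-target exon (chromosome 19, 54710421 to 54710592) went from 0.0447 and 0.0555 to 0.235 and 0.226, at 20766 reads or more per library. In the list of translation factors and tRNA synthetases 10 of 72 genes changed (13.9%), with 24 rises and 5 falls in 342 events. WARS alone gave 13 of these rises, of exon forms that overlap, and EEF1D 6 rises and 1 fall. EIF4A2, an RNA helicase of translation initiation, had a 107-nucleotide decay-target exon (chromosome 3, 186506099 to 186506205) that rose from 0.438 and 0.491 to 0.943 and 0.938. Its inclusion reads rose by 1.84 and its skipping reads fell by 2.36, so this exchange was reciprocal. The fall of a 128-nucleotide untranslated exon of EEF1D rested on 1 library, with levels of 0.781 and 0.786 in DMSO and 0.724 and 0.447 under emetine. Its change was -0.198, and -0.0593 without the second emetine library (adjusted p = 0.579 in the quasi-binomial model).

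Mitochondrial genes changed in 25 of 136 (18.4%), with 27 rises (6.40%) and 13 falls (3.08%) in 422 events. Both shares were below the 8.37% and 5.48% of all tested events, and falls were 32.5% of the changed events against 39.6%. The median event had 1415.5 reads in its shallowest library, against 275 over all tested events. MRPL1, a protein of the mitochondrial ribosome, had a 265-nucleotide noncoding exon that went from 0.0370 and 0.0128 to 0.412 and 0.401. TOMM34, which helps precursor proteins towards mitochondria, had a 148-nucleotide coding exon that fell from 0.935 and 0.922 to 0.548 and 0.528. Its skipping form is not annotated and gained 4.78 in reads.

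DNA replication and repair genes had a changed event in 51 of 131 (38.9%), against 29.5% of all tested genes. They had 47 rises (9.49%) and 39 falls (7.88%) in 495 events, against 8.37% and 5.48% of all tested events. The 62-nucleotide coding exon of CHEK2, a checkpoint kinase, fell from 0.931 and 0.946 to 0.376 and 0.460, and its skipping form is a decay target. EXO1, an exonuclease of mismatch repair, had a 108-nucleotide untranslated exon that rose from 0.313 and 0.346 to 0.744 and 0.662. Of the 47 rises in the list, 18 (38.3%) were decay-target exons with a protein-coding skipping form, against 22.7% of all rises. Of the 39 falls, 9 (23.1%) were coding exons with a decay-target skipping form, against 15.95% of all falls.

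In the cell cycle and mitosis list 59 of 196 genes changed (30.1%), close to the 29.5% of all tested genes. It had 51 rises (7.25%) and 43 falls (6.12%) in 703 events, against 8.37% and 5.48% of all tested events. BORA, an activator of the mitotic kinase Aurora A, had a 46-nucleotide coding exon that fell from 0.949 and 0.950 to 0.415 and 0.470. CEP89, a protein of the centriole, had a 108-nucleotide decay-target exon that rose from 0.140 and 0.0654 to 0.622 and 0.597, though at only 57 reads in its shallowest library. Apoptosis and p53 genes changed in 22 of 69 (31.9%), with 17 rises (8.5%) and 16 falls (8%) in 200 events. CASP2 encodes an initiator caspase, and its 61-nucleotide exon (chromosome 7, 142997473 to 142997533) went from 0.0963 and 0.143 to 0.813 and 0.735. HIPK3, a nuclear kinase, had a 63-nucleotide coding exon that fell from 0.424 and 0.407 to 0.108 and 0.0966. In HIPK3 it was the inclusion reads that changed most, by -2.23 against 0.39 for the skipping reads.

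Chromatin genes changed in 54 of 152 (35.5%), against 29.5% of all tested genes. They had 55 rises (9.53%) and 39 falls (6.76%) in 577 events, against 8.37% and 5.48% of all tested events. H2AFY encodes the histone variant macroH2A1 and had exons that moved in opposite directions. Its 91-nucleotide coding exon fell from 0.930 and 0.850 to 0.344 and 0.281, and a 111-nucleotide coding exon rose from 0.301 and 0.521 to 0.896 and 0.977. The controls of the second exon were widely spread, and both lay below the emetine libraries, as the rule for naming exons required. As in HNRNPH1, the reads that skip the first exon are nearly all of those that include the second, so the 2 events are not separate observations. BRD9, a subunit of a SWI/SNF chromatin remodeller, had a 160-nucleotide decay-target exon that rose from 0.0534 and 0.0635 to 0.668 and 0.603. Zinc finger genes changed in 57 of 192 (29.7%), so their many events were spread over a usual share of genes. The 145-nucleotide coding exon of ZNF35 rose from 0.326 and 0.452 to 0.814 and 0.773, and a 65-nucleotide untranslated exon of ZNF446 fell from 0.659 and 0.649 to 0.159 and 0.210.

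Growth factor signalling and ubiquitin genes were near or below the background. Growth factor and MAP kinase genes had 30 rises and 30 falls in 461 events (6.51% each, against 8.37% and 5.48% of all tested events). SMAD4, the common mediator of transforming growth factor beta signalling, had a 113-nucleotide decay-target exon (chromosome 18, 48603677 to 48603789) that rose from 0.0677 and 0.0509 to 0.598 and 0.577. A 173-nucleotide untranslated exon of DDR1, a collagen receptor, fell from 0.686 and 0.790 to 0.276 and 0.273. The 240-nucleotide coding exon of PHACTR2, a regulator of actin and phosphatase 1, rose from 0.0260 and 0.0345 to 0.845 and 0.696 at 60 reads or more. WASH6P fell from 0.778 and 0.753 to 0.184 and 0.230, but the gene has almost identical paralogs and its reads may come from any of them. Of 287 ubiquitin and proteasome genes 76 changed (26.5%, against 29.5% of all tested genes). The 141-nucleotide noncoding exon of IVNS1ABP rose from 0.0755 and 0.1002 to 0.775 and 0.719, and the 46-nucleotide coding exon of FBXL6 fell from 0.886 and 0.829 to 0.288 and 0.314.

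Genes of membranes and transport gave several of the large changes in coding exons. Trafficking genes changed in 86 of 296 (29.1%), close to the 29.5% of all tested genes. They had 74 rises (7.23%) and 57 falls (5.57%) in 1023 events, near the 8.37% and 5.48% of all tested events. EXOC1, a subunit of the exocyst, had a 45-nucleotide coding exon that rose from 0.159 and 0.174 to 0.845 and 0.765. The 24-nucleotide coding exon of PICALM, an adaptor of clathrin-coated pits (chromosome 11, 85689113 to 85689136), fell from 0.858 and 0.898 to 0.418 and 0.452. Adhesion genes changed in 19 of 84 (22.6%), below the 29.5% of all tested genes. The 153-nucleotide exon of PCDHGC3, a protocadherin, fell from 0.924 and 0.908 to 0.573 and 0.558. The rise of a 33-nucleotide exon of CD47, from 0.325 and 0.182 to 0.651 and 0.445, had a change of 0.295 and was not called by limma (adjusted p = 0.115). It was also lost without the second control library (change 0.223, adjusted p = 0.138 in the quasi-binomial model) or without the first emetine library (0.192, adjusted p = 0.116).

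Transporter and lipid genes changed at about the rate of all events and the metabolism list below it, with 13.9%, 14.4% and 10.6% of events changed against 13.8%. Solute carriers and ABC transporters had 28 rises and 27 falls in 395 events. The exon of SLC37A4, the glucose 6-phosphate transporter of the endoplasmic reticulum, had the largest fall of the list, with a change of -0.642. The rise in SLC25A22, a mitochondrial glutamate carrier, from 0.495 and 0.314 to 0.714 and 0.893 was not called by limma (adjusted p = 0.0739). Lipid genes had 42 rises and 36 falls in 541 events. A 137-nucleotide decay-target exon of AGPAT4, an acyltransferase, rose from 0.318 and 0.247 to 0.940 and 0.966, and an 87-nucleotide exon of DGKA, a diacylglycerol kinase, fell from 0.972 and 0.979 to 0.509 and 0.675. In the metabolism list, with 25 rises and 20 falls in 423 events, the 104-nucleotide decay-target exon of AASS, an enzyme of lysine breakdown, rose from 0.116 and 0.0414 to 0.817 and 0.801. The 49-nucleotide coding exon of GALT, of galactose metabolism, fell from 0.960 and 0.990 to 0.546 and 0.604.

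Autophagy and lysosome genes had 22 falls and 14 rises in 331 events (6.65% and 4.23%, against 5.48% and 8.37% of all tested events). By gene there was no excess, with 12 genes that had a fall and 12 that had a rise. The median control level of the list was 0.975, against 0.944 over all tested events. ATG2A, a lipid transfer protein of the growing autophagosome, had a 71-nucleotide coding exon that fell from 0.966 and 0.950 to 0.543 and 0.462. The 72-nucleotide coding exon of CALCOCO1 rose from 0.0561 and 0.0627 to 0.492 and 0.429. Nuclear transport genes changed in 22 of 78 (28.2%, against 29.5% of all tested genes), and RAN and its activator RANGAP1 moved in opposite directions. RAN is the GTPase that drives transport through the nuclear pore, and its 34-nucleotide coding exon fell from 0.672 and 0.691 to 0.347 and 0.266. A 253-nucleotide untranslated exon of RANGAP1 rose from 0.309 and 0.293 to 0.742 and 0.641.

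Protein folding genes changed in 23 of 102 (22.5%), below the 29.5% of all tested genes. Decay-target exons with a protein-coding skipping form were 9 of their 18 rises, against 22.7% of all rises, and 13.3% of the list's events. The 92-nucleotide exon of FKBP14, a prolyl isomerase of the endoplasmic reticulum (chromosome 7, 30059829 to 30059920), was one of them, from 0.0488 and 0.0231 to 0.532 and 0.538. In FKBP10, a related isomerase, a 520-nucleotide exon also annotated in decay targets but in no protein-coding transcript went the other way. Its levels went from 0.992 and 0.988 to 0.621 and 0.742. Noncoding genes rose far more often than they fell. TMEM161B-AS1 had a 65-nucleotide exon that rose from 0.322 and 0.336 to 0.798 and 0.823, while a 212-nucleotide exon of LINC00313 went from 0.829 and 0.849 to 0.737 and 0.620 and was not called by limma (adjusted p = 0.121).

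**Figure D5:**
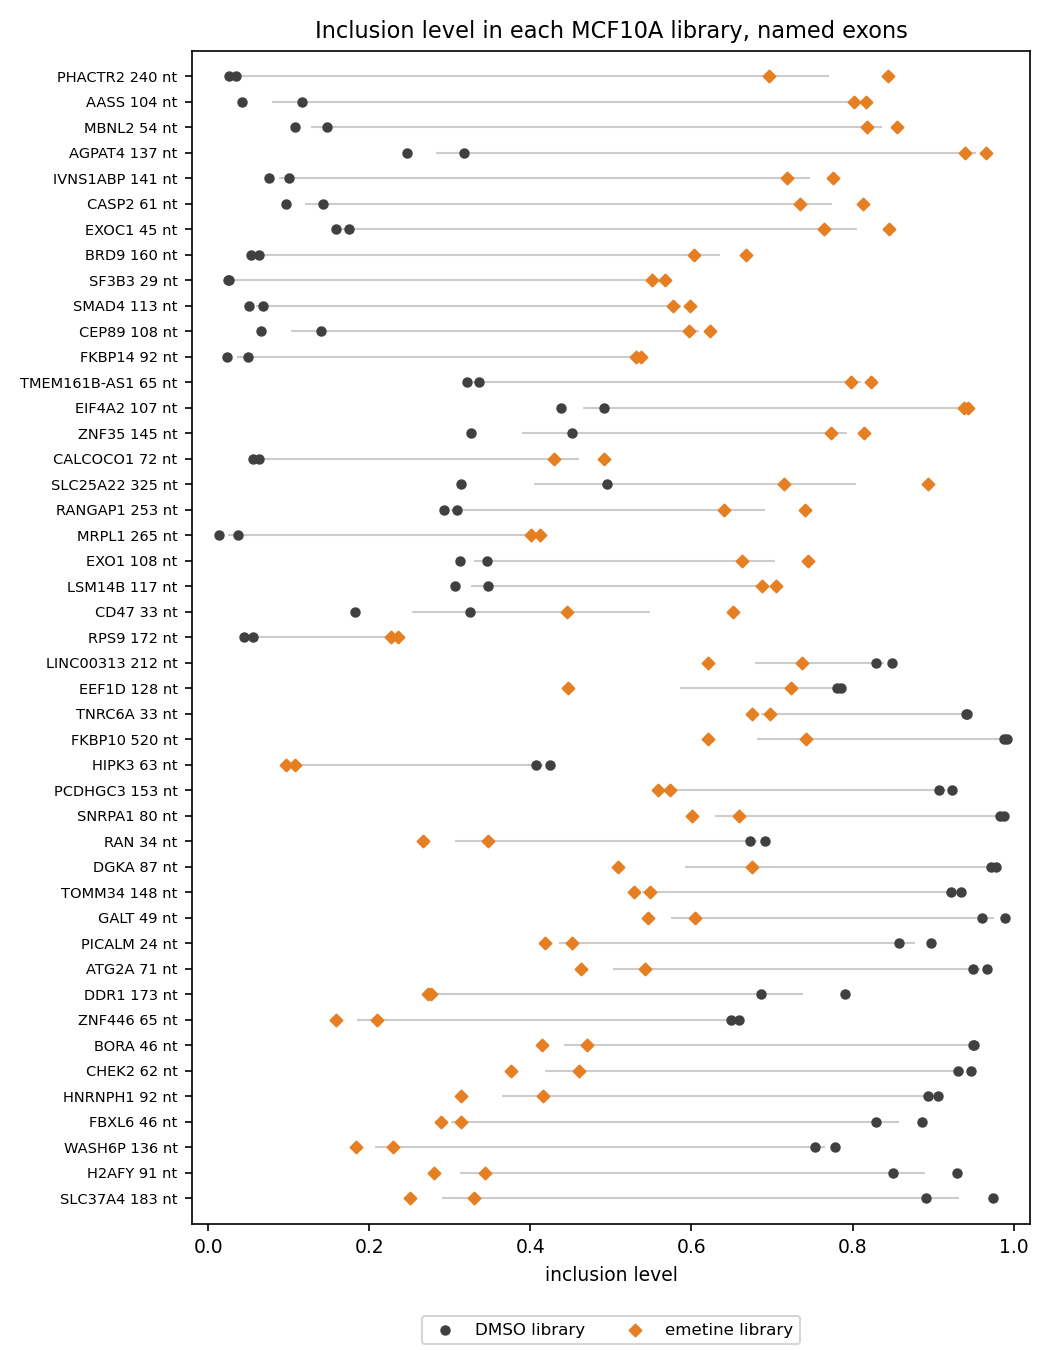
Inclusion level in each of the 4 MCF10A libraries for 45 exons named per function list (horizontal axis, from 0 to 1), with DMSO libraries as dark grey circles, emetine libraries as orange diamonds and a line joining the group means. Exons are ordered by their change, from PHACTR2, which went from 0.0260 and 0.0345 to 0.845 and 0.696, down to SLC37A4, with a change of -0.642.

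The changes were spread thinly over genes. Of the 2320 genes with a change, 1635 had 1 changed exon, 496 had 2, 169 had 3 to 4 and 20 had 5 or more. In the 685 genes with more than 1, all exons rose in 325, all fell in 167 and both directions were present in 193. WARS, the tryptophanyl-tRNA synthetase, had 7 changed exons, the most of any gene, and all rose. They include overlapping forms of 1 untranslated exon that share a splice site and junction reads. The 85-nucleotide form went from 0.0633 and 0.0671 to 0.552 and 0.501, and the 44-nucleotide form from 0.0391 and 0.0459 to 0.447 and 0.405. XRRA1 had 6 exons, all rising, among them a 98-nucleotide coding exon that went from 0.102 and 0.0700 to 0.456 and 0.456.

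Other genes with 6 changed exons were mixed. In ABHD11, 2 rose and 4 fell, and a 182-nucleotide coding exon went from 0.991 and 0.983 to 0.792 and 0.818. EEF1D had 5 that rose and 1 that fell, and limma called none of the 4 events named for this gene. BRD8, with 4 rises and 2 falls, and CNOT2, with 3 of each, also had 6 and are named here after their values were seen. TCF7L2, a transcription factor of Wnt signalling, had 2 rises and 4 falls. Its 69-nucleotide coding exon fell from 0.405 and 0.435 to 0.133 and 0.155, whereas a 73-nucleotide exon near its end went from 0.695 and 0.609 to 0.565 and 0.439 and was not called by limma (adjusted p = 0.252). In NUDT9, a hydrolase of ADP-ribose, a 186-nucleotide noncoding exon rose from 0.0330 and 0.00610 to 0.288 and 0.355, while a 112-nucleotide coding exon with a decay-target skipping form fell from 0.989 and 0.954 to 0.622 and 0.619. Reads that include the first NUDT9 exon rose by 4.82 and those that skip the second by 4.78. The reads of the other forms changed by -0.02 and 0.24, but those share a junction and are not separate observations.

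Of the 68 named events, 65 could also be tested in HMLE TWIST under the same treatment. A term for line by treatment in the quasi-binomial model over all 8 libraries was called, with a difference of at least 0.1, in 12 of them. Among all 19025 events tested in both lines 580 were called (3.05%), but the named events were chosen for large changes in MCF10A, and those values enter the difference, so the shares cannot be compared and smaller changes in HMLE TWIST follow in part from the choice. limma called 0 of these, with 2826 of the 19025 at an unadjusted p under 0.05. The exon of MBNL2 changed by 0.709 in MCF10A and by 0.0925 in HMLE TWIST. That of SMAD4 changed by 0.528 and 0.174, and that of PICALM by -0.443 and -0.270. For RPS9 and EIF4A2 the change in HMLE TWIST was the larger, 0.329 against 0.181 and 0.764 against 0.476.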

How the data were processed

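The authors deposited, per the file headers, rMATS-style tables of skipped exons that hold junction read counts for inclusion and for skipping, 2 replicates to a cell. The submitters' processing notes name STAR 2.5.3a and GRCh37. The labels' protocols give stranded TruSeq libraries of polyadenylated RNA. The name of the table puts control before emetine, and its groups were read in that order. The deposited p-value and FDR and the deposited difference score of the authors, which matched the recomputed difference to within 0.00142, were used only as an alternative. The 4 deposited columns of levels per replicate were not used.

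Events with 20 reads in every library and 10 reads of the rarer form in all were tested with a quasi-binomial model (R 4.3.3). Dispersions were moderated with limma 3.58.1, which gave all events a shared value of 1.97, so small p-values rest on that value and limma's are given beside them. In simulated data for this comparison (25522 events), 74 of 100 changes of 0.15 and 97 of 100 of 0.3 were recovered, with 5 false calls. For the line by treatment term (19025 events) the numbers were 43 and 59 of 100, with 2 false calls. All simulated events shared a single dispersion, as the model assumes, and their levels had no length correction. False calls among events with a larger spread were thus not measured. Exons were matched to GENCODE 29 (GRCh38), from which sequences were read, without converting coordinates. The library means were planned over tested events only and are also given over all 67170.

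Members and lists were chosen with earlier results of these data known, and genes mis-assigned by name patterns were removed from the lists after called genes were seen. Named exons are the largest change of each list with at least 50 reads in every library and replicates that do not overlap, the largest in the other direction where at least 10 events of the list were called, the 5 genes with most changed exons and the 3 with the largest opposite changes. The values of 1 of the 23 lists are not reported here.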

Additional observations from a re-analysis of the deposited data

Results flagged for a closer look

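The change under emetine differed between HMLE TWIST and MCF10A in 12 of the named exons by the line by treatment term of the quasi-binomial model, and values are the change in HMLE TWIST minus that in MCF10A. The difference was -0.616 for the MBNL2 exon (adjusted p = 0.00702), -0.355 for SMAD4 (9.39e-13), -0.383 for RANGAP1 (4.5e-07), -0.419 for ZNF35 (0.0279), -0.183 for EXO1 (0.0471) and -0.148 for the 85-nucleotide WARS exon (0.00879). These rises were smaller in HMLE TWIST, where the changes of ZNF35 and RANGAP1 were -0.0148 and 0.0069. It was 0.148 for RPS9 (1.78e-244), 0.288 for EIF4A2 (5.43e-16) and 0.254 for IVNS1ABP (1.65e-11), whose rises were larger in HMLE TWIST. Among the falls it was 0.426 for ZNF446 (0.000377), 0.339 for WASH6P (0.0304) and 0.173 for PICALM (4.45e-08), which fell less there. With each event's own dispersion where larger, those of MBNL2 (adjusted p = 0.0595) and EXO1 (0.481) were lost, and limma's adjusted p ran from 0.112 to 0.520 over the 12.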

How the results depend on the processing

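No call shared by the first test and any of 14 alternative settings changed direction. The main counts were 3533 changed events, 2135 rises, 1398 falls and 2320 genes. limma gave 2012, 1169, 843 and 1490, and a change of at least 0.2 gave 1596, 1013, 583 and 1186. Without 1 library they were 2992 to 3272, 1750 to 1942, 1123 to 1330 and 2031 to 2205. The other alternatives stayed within 1.5 times of the main counts. From 8 to 12 function lists lay above all tested events, against 10. Scaling by the median ratio of events moved the medians of form reads from 1.77 to 1.55 (inclusion) and from -0.49 to -0.71 (skipping) for rises, and from -0.17 to -0.39 and from 2.53 to 2.31 for falls. Without 1 library these medians were 1.69 to 1.82, -0.48 to -0.45, -0.24 to -0.12 and 2.43 to 2.65. Differences between the lines numbered 12 of the named exons, 10 with the own dispersion and 0 with limma. Of the 68 named events 55 held with limma, 65 with the own dispersion, 67 without length correction and 61 to 67 without 1 library. No paired analysis was possible because the values of a group carry no replicate number. With 2 libraries per group the spread of a single event is poorly known, junction reads are shared between events of a gene, and changes under 0.1 were not counted. Alternatives on annotated forms, on thinned reads and on all events for the mean level were chosen after seeing the data.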
